A study of Mus musculus with 4 samples.

Results

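The respiratory chain subunits encoded in the nucleus were read in sorted mouse mammary tumor cells. Members were taken by a rule on symbols that uses no expression values but was chosen with earlier results of these data known. All deposited expression rows were taken whose symbol begins with Nduf, Uqcr, Atp5 or Cox4 to Cox8, or is Sdha, Sdhb, Sdhc or Sdhd. That gave 92 of 23951 gene rows: 43 of complex I, 4 of complex II, 8 of complex III, 20 of complex IV and 17 of complex V. Ndufa4, which was found with complex I and is now counted as a cytochrome c oxidase subunit, is placed in complex IV. Not all of these names are subunits of the chain: 7 are complex I assembly factors (Ndufaf1 to Ndufaf7), Cox7a2l helps to join complexes III and IV into supercomplexes, Atp5s is a coupling factor, and Atp5sl is listed in RefSeq as Dmac2, a distal membrane arm assembly component.

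The chain passes electrons from NADH (complex I) and succinate (complex II) through ubiquinone, complex III and cytochrome c to oxygen (complex IV), and complexes I, III and IV pump protons across the inner mitochondrial membrane. Complex V, the ATP synthase, lets protons back through its membrane part, Fo, and makes ATP in its head, F1. Complexes I, III, IV and V also contain subunits encoded in mitochondrial DNA, so their assembly needs both genomes. Several complex IV subunits exist as paralogs, a form found in most tissues and a second form best known from heart, skeletal muscle, brown fat, lung or testis.

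Libraries came from yellow fluorescent cells sorted from mammary tumors of female MMTV-PyMT mice, whose tumors are driven by the polyoma virus middle T antigen expressed under the mouse mammary tumor virus promoter. There were 2 libraries labelled Lsd1 knockout and 2 labelled wild-type for Lsd1, the histone demethylase encoded by Kdm1a. All 4 carried the R26Y reporter and had received Ad-K8-Cre, an adenovirus with Cre under the keratin 8 promoter, into the ducts 2 to 3 months earlier. Recombination was therefore started in cells that use the keratin 8 promoter, and sorted cells were those in which the reporter was on. The labels give no age and leave unsaid whether each library had its own animal, and p-values then reflect the spread among these libraries only, which may be technical. The tissue label of both samples labelled knockout reads Lsd1+/+, against their titles and genotype labels, which were used here.

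Values are in FPKM, read fragments divided by the length of the transcript and the size of the library. They summed to 401786 and 402946 in the libraries labelled knockout and to 402436 and 449838 in wild-type. Read totals were not used here, and small steps in low values put the depth of the first library labelled knockout and of wild-type replicates 1 and 2 at 0.93, 1.03 and 0.85 of that of the second library labelled knockout. Kdm1a was at 20.2 and 22.8 FPKM in libraries labelled knockout, against 52.5 and 22.9 FPKM in wild-type. The RNA level of the gene targeted thus did not set wild-type replicate 2 apart from them. Reads over single exons were not examined, so this level does not tell whether the gene was deleted. The wild-type pair was less alike than the pair labelled knockout: the median gap of a member between libraries of a pair was 0.09 in log2(FPKM + 1) for the pair labelled knockout and 0.23 for wild-type. Marker genes of other cells also moved with the labels. The 12 lymphocyte markers, 11 of which were called higher, summed to 1866 and 1777 FPKM in libraries labelled knockout, against 17.2 and 68.6 FPKM in wild-type. The 9 luminal epithelial markers summed to 701 and 720.4 FPKM in libraries labelled knockout, against 11714 and 2622 FPKM in wild-type. Both libraries labelled knockout were below both of wild-type in all 9, and 1 was called lower. Of all tested genes, 6.99% were called lower and 9.51% higher. Both libraries labelled knockout were below both of wild-type in 32.1% of all tested genes and above them in 39.3%. In bulk libraries, fewer cells of a type and less RNA per cell cannot be told apart, and the part of these markers in the results that follow was not tested.

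Most respiratory chain genes were read at lower levels in the libraries labelled knockout. Summed over the 92 members, FPKM reached 12368 and 12697 in the libraries labelled knockout, against 16279 and 17300 in wild-type, or 3.08% and 3.15% of each library's total against 4.05% and 3.85%. The sums of the groups did not overlap, and neither did these shares. Of the 90 members tested, 10 fell and 1 rose at an adjusted p under 0.05 (limma on log2(FPKM + 1), adjusted over all 11138 genes tested), while 79 were not called. Lower calls thus made up 11.1% of tested members, against 6.99% of all tested genes. Calls in either direction made up 16.5% of all tested genes, and higher calls 9.51%. At an unadjusted p under 0.05, 32 tested members were lower and 2 higher, against 1984 and 2411 of all 11138 tested genes. Later counts at this level in classes and lists are to be read beside these totals. The groups did not overlap, with both libraries labelled knockout below both of wild-type, in 57 tested members (63.3%), against 32.1% of all tested genes. In 10 members both libraries labelled knockout were above both of wild-type, where 39.3% of all tested genes were so, and in 23 the groups overlapped. The log2 difference was below 0 in 74 tested members (82.2%), against 46.4% of all tested genes, and its median was -0.36, against 0.08 over all tested genes. Later counts of calls, of groups that did not overlap and of differences below 0 are to be read beside these shares of all tested genes.

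No member call remained when either library labelled knockout was left out. With 1 library left in a group, the spread within groups comes from the other pair alone, and the wild-type pair was the less alike. Leaving out either wild-type library raised the count of called members, and with 1 library left in that group these counts are not given. The median stayed between -0.42 and -0.29 with any 1 of the 4 libraries left out. With 2 libraries a group, the exact permutation test of a single gene has 3 splits and cannot go below p = 0.333, so the adjusted p-values depend on the spread that limma shares across genes.

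**Figure D1:**
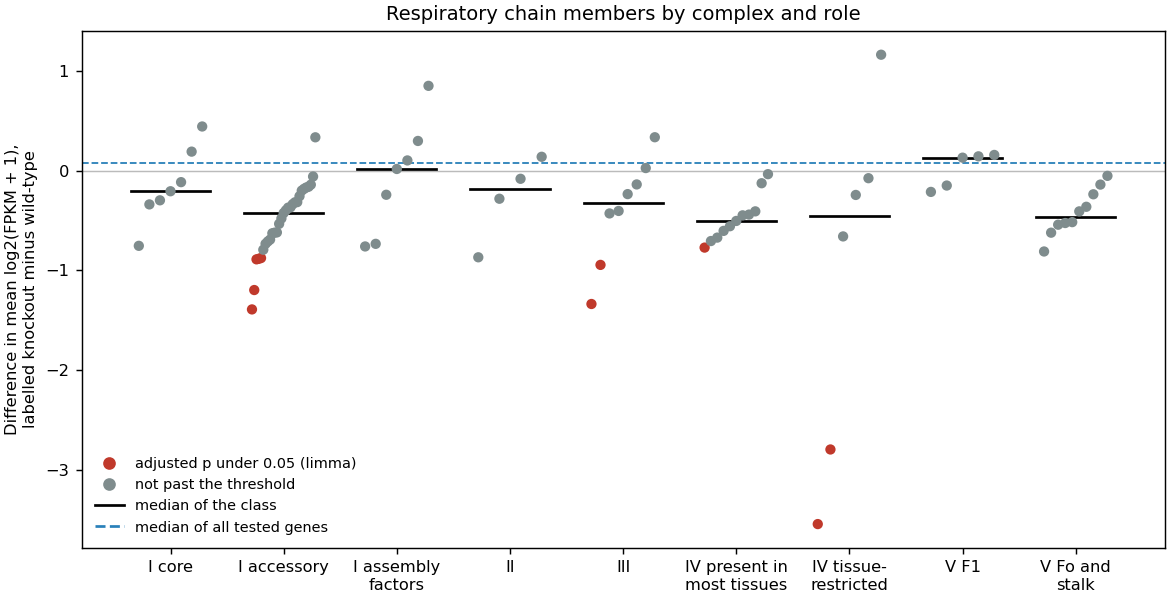
Difference in mean log2(FPKM + 1), labelled knockout minus wild-type, for each tested subunit and complex I assembly factor, grouped by complex and role. Points are genes, red where the limma adjusted p was under 0.05, black bars are medians of a class, and the dashed line is the median of all tested genes at 0.08. Cox7a2l, Atp5s and Atp5sl are left out. The complex IV, complex I accessory and Fo classes lie mostly below 0, with medians from -0.50 to -0.42, and the F1 class has a median of 0.13 (-0.067 without wild-type replicate 2).

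In complex I the lower calls were all accessory subunits. Its 7 core subunits, which together hold the flavin and the iron-sulfur clusters and are shared with bacteria, had a median log2 difference of -0.21 (-0.33 without wild-type replicate 1 and -0.086 without replicate 2). None was called by limma (at an unadjusted p under 0.05, 1 was lower and 0 higher). Among the 29 accessory subunits, which surround the core and stabilise it, the median was -0.42 (range -1.39 to 0.34), 5 fell and none rose. The difference was below 0 in 28 of the 29 (27 of 29 when libraries were rescaled to a common total, where Ndufb10 turned positive, and 24 of 29 without wild-type replicate 2). Both libraries labelled knockout were below both of wild-type in 22 accessory subunits and above them in 1, Ndufa6, and the groups overlapped in 6. Whether core and accessory subunits differ was not tested. The ratio of summed accessory to summed core FPKM was 7.16 and 6.92 in the libraries labelled knockout, against 8.55 and 7.62 in wild-type.

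Ndufb9, a membrane arm subunit, was at 95.6 and 105 FPKM in libraries labelled knockout, against 314 and 222 FPKM in wild-type. It had the largest log2 difference among complex I genes, -1.39 (SE 0.23, limma adjusted p = 0.038). Ndufc2, also of the membrane arm, was at 57.2 and 54.9 FPKM in libraries labelled knockout, against 115 and 147 FPKM in wild-type (log2 difference -1.20, SE 0.20, limma adjusted p = 0.038). Its partner Ndufc1 was at 152 and 144 FPKM in libraries labelled knockout, against 277 and 272 FPKM in wild-type (log2 difference -0.88, SE 0.14, limma adjusted p = 0.036). For all of these, both libraries labelled knockout lay below both of wild-type, and the wild-type values of Ndufb9 were the farthest apart. Ndufa7 was at 104 and 109 FPKM in libraries labelled knockout, against 186 and 208 FPKM in wild-type (log2 difference -0.88, SE 0.16, limma adjusted p = 0.041). Ndufa12, which sits on the arm that faces the matrix, was at 74.1 and 66.0 FPKM in libraries labelled knockout, against 138 and 123 FPKM in wild-type (log2 difference -0.89, SE 0.17, limma adjusted p = 0.047). The groups did not overlap for either gene. Against the wild-type mean, the mean of the libraries labelled knockout was 37.3% for Ndufb9, 42.8% for Ndufc2, 54.0% for Ndufc1, 54.2% for Ndufa7 and 53.6% for Ndufa12. The calls of Ndufb9, Ndufc1, Ndufa7 and Ndufa12 ended when libraries were rescaled to a common total (limma adjusted p from 0.0504 to 0.076). An annotation of another build places exons of a predicted gene over those of Ndufb9 on the same strand, so its reads could be shared. It also lists same-strand overlaps for Ndufb2, Ndufb8 and Atp5o. Further members, among them Uqcrb, Ndufb6 and Atp5j, overlap a gene on the other strand.

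Other complex I genes stood apart from this pattern. Ndufa3 had the highest mean level of the complex, with 316 and 346 FPKM in libraries labelled knockout, against 298 and 445 FPKM in wild-type. Its groups overlapped (log2 difference -0.14, limma adjusted p = 0.71). Ndufs1, the largest core subunit, was at 21.6 and 25.4 FPKM in libraries labelled knockout, against 18.4 and 15.6 FPKM in wild-type. This core gene was higher in both libraries labelled knockout and was not called (log2 difference 0.44, limma adjusted p = 0.20). Ndufs8, another iron-sulfur core subunit, was at 90.9 and 97.5 FPKM in libraries labelled knockout, against 132 and 193 FPKM in wild-type, and was not called either (log2 difference -0.75, limma adjusted p = 0.11). Ndufs5 was read at 1.33 and 5.07 FPKM in libraries labelled knockout, against 8.75 and 3.36 FPKM in wild-type, with overlapping groups, although every other accessory subunit was at 17 FPKM or more in all 4 libraries. The 7 assembly factors, which help to build complex I and are not part of it, were read between 2.16 and 25.9 FPKM, and their median log2 difference was 0.02 (from -0.14 to 0.055 with 1 library left out), with none called by limma (at an unadjusted p under 0.05, 1 was lower and 0 higher). Ndufaf4 had the largest positive difference among them, with 7.76 and 8.18 FPKM in libraries labelled knockout, against 6.16 and 2.45 FPKM in wild-type (log2 difference 0.85, SE 0.43, limma adjusted p = 0.22). Without wild-type replicate 2 that difference was 0.32, and without replicate 1 it was 1.38. Ndufs1, Ndufs8, Ndufs5 and Ndufa6 were picked out after their values were seen.

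None of the 4 subunits of complex II, which is also succinate dehydrogenase of the citric acid cycle and is encoded wholly in the nucleus, was called by limma (at an unadjusted p under 0.05, 1 was lower and 0 higher). The catalytic flavoprotein Sdha was at 54.0 and 51.4 FPKM in libraries labelled knockout, against 48.5 and 47.0 FPKM in wild-type (log2 difference 0.14, limma adjusted p = 0.58). The iron-sulfur subunit Sdhb was at 102 and 109.8 FPKM in libraries labelled knockout, against 100.3 and 165 FPKM in wild-type (log2 difference -0.28, limma adjusted p = 0.52). Wild-type replicate 2 alone set Sdhb apart, and without it the difference was 0.076. Of the membrane anchors that bind ubiquinone, Sdhc was at 28.6 and 23.8 FPKM in libraries labelled knockout, against 50.3 and 46.8 FPKM in wild-type. Its groups did not overlap, and it missed the threshold narrowly (log2 difference -0.87, SE 0.20, limma adjusted p = 0.060). Sdhd, the other anchor, was at 67.7 and 68.4 FPKM in libraries labelled knockout, against 71.9 and 72.2 FPKM in wild-type (log2 difference -0.08, limma adjusted p = 0.73). The ratio of Sdhc to Sdha within a library was 0.529 and 0.463 in the libraries labelled knockout, against 1.04 and 0.994 in wild-type.

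Complex III had 2 lower calls among 8 genes, both small subunits without a redox centre. Uqcr11, the smallest, was at 170.4 and 165 FPKM in libraries labelled knockout, against 410.1 and 441 FPKM in wild-type. The mean of the libraries labelled knockout was 39.4% of that of wild-type (log2 difference -1.34, SE 0.14, limma adjusted p = 0.025), with groups that did not overlap. Uqcrb, which lies by the ubiquinone site, was at 194 and 203 FPKM in libraries labelled knockout, against 369.9 and 398 FPKM in wild-type (log2 difference -0.95, SE 0.14, limma adjusted p = 0.034). Uqcr10, the gene with the highest mean of the complex, was at 291 and 296 FPKM in libraries labelled knockout, against 384 and 394 FPKM in wild-type, below in both but not called (log2 difference -0.40, limma adjusted p = 0.11). The hinge protein gene Uqcrh went the other way, with 286 and 295 FPKM in libraries labelled knockout, against 220.1 and 240.0 FPKM in wild-type (log2 difference 0.34, limma adjusted p = 0.17). Annotated pseudogenes carry the name of Uqcrh, so its reads could be split. The same holds for Atp5c1, Atp5k, Atp5l and Ndufab1. The core protein gene Uqcrc2, named after its values were seen, was at 58.5 and 59.9 FPKM in libraries labelled knockout, against 68.3 and 49.5 FPKM in wild-type, with overlapping groups. Uqcr11 was thus 2.91 and 2.75 times Uqcrc2 in the libraries labelled knockout, against 6.01 and 8.92 times in wild-type, while the complex as a whole had a median log2 difference of -0.32.

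In complex IV, 3 genes fell and none rose. The 11 subunits found in most tissues had a median log2 difference of -0.50, and it was below 0 in all 11 (in 10 of 11 when libraries were rescaled to a common total or quantile normalized, where Cox5a turned positive, and without wild-type replicate 2 or the second library labelled knockout). Both libraries labelled knockout were below both of wild-type in 10 of them, and 1 of the 11, Ndufa4, was called. Ndufa4 had the highest mean level of complex IV, with 420.5 and 449 FPKM in libraries labelled knockout, against 799.6 and 690.1 FPKM in wild-type. Its log2 difference was -0.77 (SE 0.15, limma adjusted p = 0.046), and the call ended under several other settings, at limma adjusted p = 0.0501 with a pseudocount of 0.1, 0.083 with a common total, 0.078 with quantile normalization and 0.073 without trend. Cox4i1, the regulatory subunit that binds ATP, was at 452 and 424 FPKM in libraries labelled knockout, against 616 and 719.9 FPKM in wild-type (log2 difference -0.60, limma adjusted p = 0.069). Cox6b1, which faces the intermembrane space, was at 429.6 and 416 FPKM in libraries labelled knockout, against 609.6 and 781 FPKM in wild-type (log2 difference -0.71, limma adjusted p = 0.071). These groups did not overlap, but neither gene passed. Cox8a differed less, with 357 and 376 FPKM in libraries labelled knockout, against 389.6 and 411 FPKM in wild-type (log2 difference -0.13, limma adjusted p = 0.53). Cox6a1 had 449.9 and 453 FPKM in libraries labelled knockout, against 634 and 567 FPKM in wild-type (log2 difference -0.41, limma adjusted p = 0.11). The log2 difference was -0.50 for Cox7a2 and -0.45 for Cox7b (limma adjusted p = 0.11 and 0.12), with all values between 106 and 250.02 FPKM and groups that did not overlap for either gene.

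**Figure D2:**
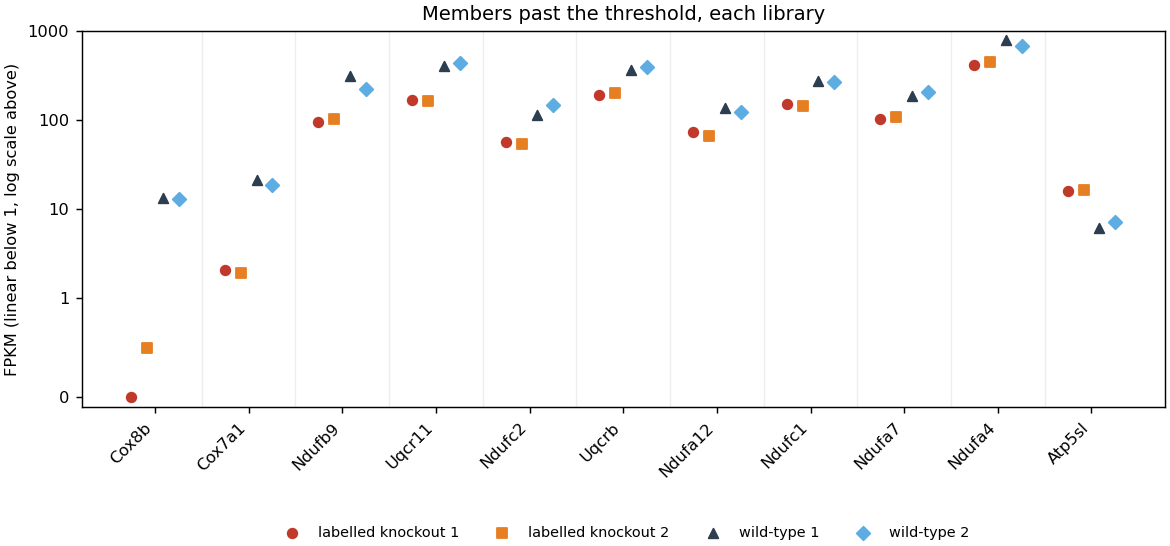
FPKM (linear below 1, log scale above) in each of the 4 libraries for the 11 members past the limma threshold. The markers are single libraries. For 10 genes both libraries labelled knockout lie below both wild-type libraries, and for Atp5sl they lie above.

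The 2 members with the largest differences, Cox8b and Cox7a1, were both tissue-restricted isoforms of complex IV. Cox8b, the heart and skeletal muscle form of subunit VIII, was listed at 0 and at 0.495 FPKM in libraries labelled knockout, against 13.5 and 13.1 FPKM in wild-type. It passed the filter only through the wild-type libraries (log2 difference -3.55 on the log2(FPKM + 1) scale, SE 0.29, limma adjusted p = 0.024). Cox7a1, the heart and muscle form of subunit VIIa, was at 2.09 and 1.94 FPKM in libraries labelled knockout, against 21.5 and 18.6 FPKM in wild-type (log2 difference -2.80, SE 0.22, limma adjusted p = 0.024). In both genes the libraries of each pair lay close together and the groups far apart. As shares of their paralogs, Cox8b made up 0% and 0.131% of the summed FPKM of Cox8a, Cox8b and Cox8c in the libraries labelled knockout, against 3.35% and 3.09% in wild-type. Cox7a1 made up 1.32% and 1.15% of Cox7a1 plus Cox7a2 in the libraries labelled knockout, against 9.23% and 6.91% in wild-type. The form found in most tissues thus remained the main one in all 4 libraries.

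The remaining restricted isoforms were low and did not follow that pattern. Cox4i2, known from lung, had 1.28 and 0.223 FPKM in libraries labelled knockout, and in wild-type it was listed at 0 and at 2.10 FPKM (log2 difference -0.08, limma adjusted p = 0.95). Cox6a2, a heart and muscle form, had 3.05 and 2.74 FPKM in libraries labelled knockout, and in wild-type it was listed at 0 and at 2.02 FPKM (log2 difference 1.16, SE 0.60, limma adjusted p = 0.23). Without wild-type replicate 1 the Cox6a2 difference was 0.37, and without replicate 2 it was 1.96. Cox6b2, known from testis, had 1.29 and 1.48 FPKM in libraries labelled knockout, against 0.587 and 7.95 FPKM in wild-type (log2 difference -0.66, limma adjusted p = 0.63). Only Cox6a2 of these had groups that did not overlap, and none was called. Ndufa4l2, a paralog of Ndufa4 induced by low oxygen, had 0.829 and 2.92 FPKM in libraries labelled knockout, against 1.80 and 2.59 FPKM in wild-type (log2 difference -0.24, limma adjusted p = 0.72). Cox7b2 and Cox8c were listed at 0 in all 4 libraries and were not tested. The supercomplex factor Cox7a2l, named after its values were seen, had 83.1 and 77.3 FPKM in libraries labelled knockout, against 47.1 and 52.7 FPKM in wild-type, above in both but not called (log2 difference 0.68, SE 0.17, limma adjusted p = 0.073).

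**Figure D3:**
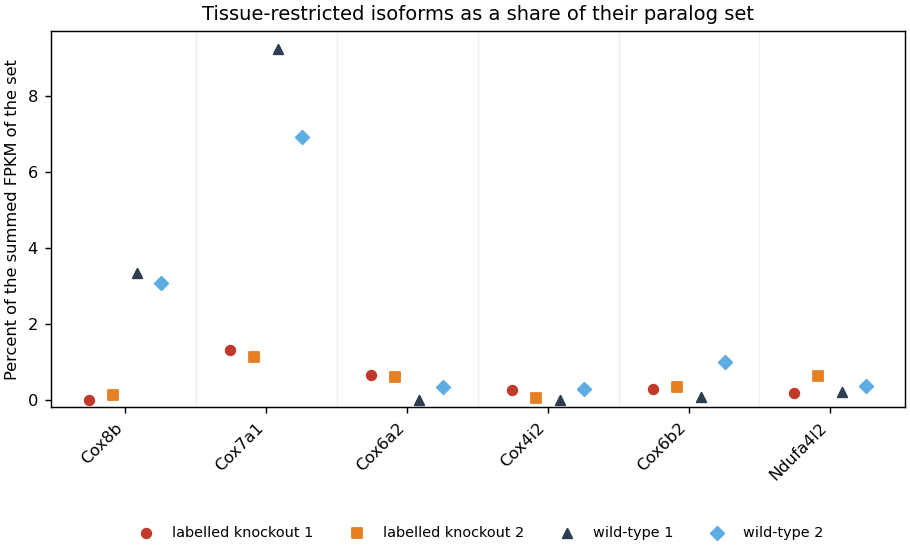
FPKM of 6 tissue-restricted isoforms as a percentage of the summed FPKM of its paralog set, in each of the 4 libraries. Cox8b and Cox7a1 reach 3.09% to 9.23% in wild-type and at most 1.32% in the libraries labelled knockout, and the other 4 isoforms plotted stay at or under 1.01% in every library. Cox7b2 and Cox8c, at 0 in all libraries, are not drawn.

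Cox8b and Cox7a1 are also used as markers of brown adipocytes and striated muscle, whose other markers were read beside them. Of the other 5 brown adipocyte markers none passed the filter. Ucp1, the defining uncoupling protein, was at 0.058 FPKM and 0 in the libraries labelled knockout, against 0 and 0.19 FPKM in wild-type. Elovl3 was at 0 in both wild-type libraries, and Cidea was at 0.65 and 0.49 FPKM in libraries labelled knockout, against 7.39 and 0.95 FPKM in wild-type. The 9 skeletal muscle markers, Cox6a2 among them, summed to 14.4 and 14.6 FPKM in libraries labelled knockout, against 5.57 and 103 FPKM in wild-type. Only 5 of the 9 were tested, and none was called. Mylpf was at 8.99 and 8.34 FPKM in libraries labelled knockout, against 0 and 10.8 FPKM in wild-type (log2 difference 1.49). Tnni2 was at 1.09 and 1.52 FPKM in libraries labelled knockout, against 0.82 and 11.0 FPKM in wild-type. Groups overlapped for both. Ckm, the muscle creatine kinase, was at 0.10 and 0.16 FPKM in libraries labelled knockout, against 0 and 11.8 FPKM in wild-type. Acta1, the skeletal muscle actin, was at 1.03 and 1.15 FPKM in libraries labelled knockout, against 2.89 and 21.1 FPKM in wild-type. In wild-type replicate 1, Ckm, Myh1, Myh4, Mylpf and Cox6a2 were listed at 0, and Acta1, Tnnc2 and Tnnt3 were above both libraries labelled knockout. The part of muscle or fat RNA in the Cox8b and Cox7a1 results was not tested. The 7 adipocyte markers summed to 19.4 and 24.1 FPKM in libraries labelled knockout, against 70.5 and 398 FPKM in wild-type, with Plin1 and Lep listed at 0 in all 4 libraries. Most of that sum was Fabp4, the fatty acid binding protein of adipocytes and the only one of the 7 tested, at 19.1 and 23.8 FPKM in libraries labelled knockout, against 70.3 and 374 FPKM in wild-type. Its groups did not overlap, with the libraries labelled knockout lower, and it was not called (log2 difference -2.87, SE 0.88, limma adjusted p = 0.098). In wild-type replicate 1, Adipoq, Retn and Cidec were listed at 0 and Cfd at 0.158 FPKM. Adipoq and Retn were above 0 in both libraries labelled knockout. In wild-type replicate 2, all of these genes were above both libraries labelled knockout.

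The promoters of both isoforms are shown beside those of Cox8a, the paralog of Cox8b that was not called, and Uqcr11, because the letters of housekeeping respiratory promoters and of muscle promoters are easily compared there. Each runs from 250 bases before to 50 bases after the RefSeq start, 5′ to 3′ on the gene's strand, in GRCm38.p6. Capitals mark matches, on either strand, to 6 motifs chosen with results known: GCATGCGC (NRF-1), CCGGAAGT (GABP), AAGATGGCG (YY1), AAGGTCA (estrogen-related receptors), the E-box CAGCTG and TATAAA. No matches overlap in these promoters.
Cox8b, chr7:140900397-140900696, minus strand: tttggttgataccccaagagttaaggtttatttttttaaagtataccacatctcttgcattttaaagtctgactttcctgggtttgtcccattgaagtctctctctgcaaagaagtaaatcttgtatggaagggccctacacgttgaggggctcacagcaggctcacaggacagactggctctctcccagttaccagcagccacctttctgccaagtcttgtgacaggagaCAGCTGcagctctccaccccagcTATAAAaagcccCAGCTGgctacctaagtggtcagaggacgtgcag
Cox7a1, chr7:30183921-30184220, plus strand: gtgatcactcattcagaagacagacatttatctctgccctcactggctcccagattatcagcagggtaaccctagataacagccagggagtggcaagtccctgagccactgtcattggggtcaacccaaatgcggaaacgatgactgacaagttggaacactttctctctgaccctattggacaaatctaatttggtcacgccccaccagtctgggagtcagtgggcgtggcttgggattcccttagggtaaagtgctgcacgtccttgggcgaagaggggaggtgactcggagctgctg
Cox8a, chr19:7217567-7217866, minus strand: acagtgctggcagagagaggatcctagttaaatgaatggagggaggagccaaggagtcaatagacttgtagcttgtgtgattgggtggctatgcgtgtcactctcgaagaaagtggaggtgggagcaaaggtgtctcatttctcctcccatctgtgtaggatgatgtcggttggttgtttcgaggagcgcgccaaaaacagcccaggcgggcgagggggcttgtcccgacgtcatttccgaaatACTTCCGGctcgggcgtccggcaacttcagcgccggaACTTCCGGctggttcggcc
Uqcr11, chr10:80406772-80407071, minus strand: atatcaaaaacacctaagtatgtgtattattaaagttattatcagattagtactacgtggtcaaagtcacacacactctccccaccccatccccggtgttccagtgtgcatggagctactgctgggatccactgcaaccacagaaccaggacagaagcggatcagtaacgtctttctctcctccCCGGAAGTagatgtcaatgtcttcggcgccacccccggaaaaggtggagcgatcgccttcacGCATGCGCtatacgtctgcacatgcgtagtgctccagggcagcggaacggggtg

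The Cox8b window holds 2 E-boxes and 1 TATAAA, and the Cox7a1 window holds no match to the 6 motifs. The Cox8a window holds 2 matches to the GABP letters, and that of Uqcr11 holds 1 GABP and 1 NRF-1 match. Of the 8 lower-called members with a promoter found, 1 had the NRF-1 letters and 1 the GABP letters, Uqcr11 in both cases. Promoters were found for 76 of the 92 members, under their RefSeq symbols. The NRF-1 letters stood in 15.8% of them, against 3.05% of all 27025 promoters in the table, the YY1 letters in 10.5% against 1.64%, and those of the estrogen-related receptors in 10.5% against 5.38%. The GABP letters were in 6.58% of member promoters, against 4.31% of all, the E-box in 7.89% against 18.3%, and TATAAA in 9.21% against 15.7%. These are matches of letters and do not show binding.

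Complex V had no lower call by limma, and at an unadjusted p under 0.05 4 of its genes were lower and 1 higher. Its F1 head, 5 genes, had a median log2 difference of 0.13 (0.21 without wild-type replicate 1, -0.067 without replicate 2 and 0.069 without the second library labelled knockout), and its 10 genes of Fo and the stalk had a median of -0.46. Among the 10, both libraries labelled knockout were below both of wild-type in 8 and the groups overlapped in 2, and the difference was below 0 in all 10 (in 9 of 10 when rescaled to a common total or quantile normalized, where Atp5h turned positive, and without either wild-type library). Among the 5, the groups overlapped in 3. The summed Fo and stalk FPKM was 1.68 and 1.70 times the F1 sum in the libraries labelled knockout, against 2.09 and 2.40 times in wild-type. This difference between the parts of the enzyme is a description of the matched members and was not tested. Usmg5, an ATP synthase subunit whose symbol the rule does not match, is not among the 10. It was at 685 and 755 FPKM in libraries labelled knockout, against 651 and 773 FPKM in wild-type. Its groups overlapped (log2 difference 0.02), and it is counted below with the electron carriers and inner membrane shuttles.

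Atp5b, the catalytic beta subunit and the gene with the highest mean among complex V members, was at 527 and 499 FPKM in libraries labelled knockout, against 574 and 375 FPKM in wild-type. The wild-type values lay on either side of the others (log2 difference 0.14, limma adjusted p = 0.70). Atp5a1, the alpha subunit, behaved alike, with 152 and 172 FPKM in libraries labelled knockout, against 169.5 and 124 FPKM in wild-type (log2 difference 0.16, limma adjusted p = 0.63). The proton-carrying c ring of Fo is made of 1 mature protein encoded by Atp5g1, Atp5g2 and Atp5g3. Atp5g1 was at 140.1 and 141 FPKM in libraries labelled knockout, against 273 and 225 FPKM in wild-type, and just missed the threshold (log2 difference -0.81, SE 0.17, limma adjusted p = 0.053). Atp5g2 was at 125 and 137 FPKM in libraries labelled knockout, against 156 and 183 FPKM in wild-type (log2 difference -0.36, limma adjusted p = 0.20). Atp5g3, the highest of the trio, was at 292 and 311 FPKM in libraries labelled knockout, against 450.4 and 356 FPKM in wild-type (log2 difference -0.41, limma adjusted p = 0.18). The groups did not overlap for any of the trio. Atp5g1 supplied 25.1% and 24.02% of their summed FPKM in libraries labelled knockout, against 31.1% and 29.4% in wild-type. The coupling factor 6 gene Atp5j, named after its values were seen, was at 206 and 203 FPKM in libraries labelled knockout, against 310.3 and 321 FPKM in wild-type (log2 difference -0.62, limma adjusted p = 0.056). Atp5g1 and Atp5j were called when only genes with 5 FPKM or more were tested (limma adjusted p = 0.045 and 0.046).

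**Figure D4:**
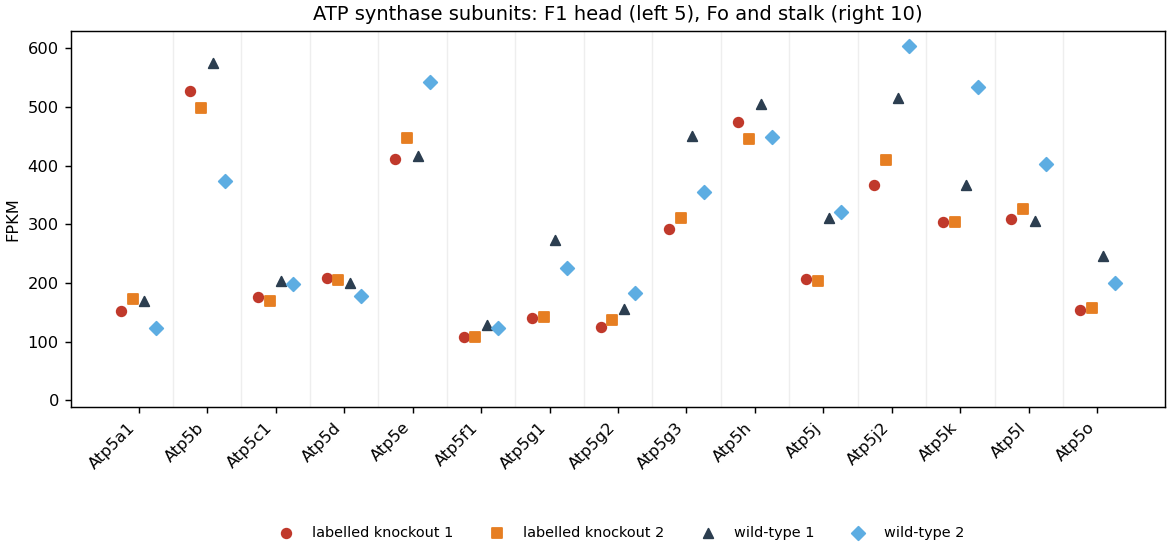
FPKM in each of the 4 libraries for the 15 ATP synthase subunits matched by the rule on symbols, 5 of the F1 head on the left and 10 of Fo and the stalk on the right. The markers are single libraries. Both libraries labelled knockout lie below both of wild-type in 8 of the 10 Fo and stalk genes and in 1 of the 5 F1 genes.

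The only member that rose was Atp5sl, which is no ATP synthase subunit despite its symbol. It was at 16.1 and 16.6 FPKM in libraries labelled knockout, against 6.15 and 7.21 FPKM in wild-type, with groups that did not overlap. The mean of the libraries labelled knockout was 245% of that of wild-type (log2 difference 1.18, SE 0.21, limma adjusted p = 0.041).

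Genes that serve the chain without being members did not share one direction. Counts of calls in these and the following lists are to be read beside all tested genes, of which 6.99% were called lower and 9.51% higher. Of 36 tested respiratory complex assembly factors, 7 of which are the Ndufaf members, none fell and 2 rose (at an unadjusted p under 0.05, 2 were lower and 4 higher), with a median log2 difference of -0.02 (0.053 when rescaled to a common total and 0.083 without wild-type replicate 1). Sdhaf1, which helps to load iron-sulfur clusters into Sdhb, was at 22.7 and 26.1 FPKM in libraries labelled knockout, against 6.30 and 8.03 FPKM in wild-type (log2 difference 1.64, SE 0.23, limma adjusted p = 0.032). Cox18, which inserts a mitochondrially encoded complex IV subunit, was at 8.47 and 9.001 FPKM in libraries labelled knockout, against 2.72 and 2.19 FPKM in wild-type (log2 difference 1.497, limma adjusted p = 0.034). No gene of complexes II or IV rose beside them.

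A list of 18 genes joined citric acid cycle enzymes with Pdha1, Pdhb, Dlat and Pdhx of the pyruvate dehydrogenase complex. None of the 18 was called in either direction (at an unadjusted p under 0.05, 1 was lower and 0 higher). Their median log2 difference was 0.01 (0.23 without wild-type replicate 1 and -0.20 without replicate 2). Their summed FPKM was 731 and 705 in the libraries labelled knockout, against 816 and 647 in wild-type, so the groups overlapped. The 74 chain subunits found in most tissues, 8 of which fell and 0 of which rose (median -0.38), summed to 16.7 and 17.8 times these 18 genes in the libraries labelled knockout, against 19.8 and 26.5 times in wild-type. Of 77 mitochondrial ribosomal protein genes 1 fell and none rose, with a median of -0.22. Lower calls made up 6.99% of all tested genes, and higher calls 9.51%. At an unadjusted p under 0.05, 16 of the 77 were lower and 4 higher, against 1984 and 2411 of all 11138 tested genes. Both libraries labelled knockout were below both of wild-type in 40 and above in 13, against 32.1% and 39.3% of all tested genes. Mrpl27, the gene that fell, was at 16.7 and 15.9 FPKM in libraries labelled knockout, against 55.6 and 59.3 FPKM in wild-type (log2 difference -1.76, limma adjusted p = 0.025).

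Among regulators of mitochondrial genes and of mitochondrial DNA, 15 of which were tested, none fell and 4 rose (at an unadjusted p under 0.05, 0 were lower and 7 higher). Their median log2 difference was 0.72. Nrf1, whose factor binds respiratory promoters, was at 19.6 and 22.7 FPKM in libraries labelled knockout, against 8.36 and 8.61 FPKM in wild-type (log2 difference 1.22, limma adjusted p = 0.037). Gabpb1, which encodes the beta chain of GABP, was at 47.8 and 48.0 FPKM in libraries labelled knockout, against 18.2 and 12.2 FPKM in wild-type (log2 difference 1.62, limma adjusted p = 0.037). The letters of NRF-1 and GABP are among those marked in the promoters above. Gabpa, which encodes the alpha chain of GABP, was at 5.35 and 5.96 FPKM in libraries labelled knockout, against 7.83 and 3.87 FPKM in wild-type. Its groups overlapped and it was not called (log2 difference 0.02, limma adjusted p = 0.98). Tfam, which packs and transcribes mitochondrial DNA, was at 11.7 FPKM in each library labelled knockout, against 3.12 and 3.89 FPKM in wild-type (log2 difference 1.4995, limma adjusted p = 0.034). Polg2, the accessory subunit of the mitochondrial DNA polymerase, was at 22.4 and 22.5 FPKM in libraries labelled knockout, against 2.87 and 1.75 FPKM in wild-type (log2 difference 2.85, limma adjusted p = 0.024). Ppargc1a, the coactivator PGC-1alpha, stayed between 0.12 and 0.21 FPKM in all 4 libraries and was not tested. No row matched the mitochondrially encoded subunits, so their levels are not analysed here.

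Among 20 electron carriers, ubiquinone synthesis enzymes and inner membrane shuttles, 4 fell and 2 rose, with a median log2 difference of -0.35 (-0.20 without wild-type replicate 1). Of all tested genes, 6.99% were called lower and 9.51% higher. The ATP synthase inhibitor Atpif1 was at 166 and 163 FPKM in libraries labelled knockout, against 494 and 568 FPKM in wild-type (log2 difference -1.68, limma adjusted p = 0.024). Its ratio to Atp5b was 0.316 and 0.326 in the libraries labelled knockout, against 0.859 and 1.52 in wild-type. Both genes of the electron transfer flavoprotein, which brings electrons from fatty acid oxidation, fell. Etfa was at 48.6 and 48.3 FPKM in libraries labelled knockout, against 108 and 88.1 FPKM in wild-type (log2 difference -0.99, limma adjusted p = 0.046). Etfb was at 42.0 and 43.3 FPKM in libraries labelled knockout, against 100.2 and 110.2 FPKM in wild-type (log2 difference -1.28, limma adjusted p = 0.030). Coq7, a hydroxylase of ubiquinone synthesis, also fell, to 7.10 and 7.0 FPKM in libraries labelled knockout, against 28.4 and 29.8 FPKM in wild-type (log2 difference -1.90, limma adjusted p = 0.024). The phosphate carrier Slc25a3 was at 212 and 215 FPKM in libraries labelled knockout, against 132 and 128 FPKM in wild-type (log2 difference 0.71, limma adjusted p = 0.049). Higd1a, a small protein of the inner membrane that associates with complex IV, was at 42.5 and 42.9 FPKM in libraries labelled knockout, against 20.3 and 19.9 FPKM in wild-type (log2 difference 1.05, limma adjusted p = 0.038). Etfa and Slc25a3 lost their calls when rescaled to a common total (limma adjusted p = 0.075 and 0.056) and without trend (0.053 and 0.072), and Slc25a3 also with a pseudocount of 0.1 (0.052) and with median centring (0.068). All 13 calls named from these lists ended without either library labelled knockout (limma adjusted p from 0.449 to 0.541).

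Most respiratory chain genes are short, and the log2 difference went with length. The median coding length of the tested members was 436.5 bases, and across the 90 of them Spearman's rho between coding length and log2 difference was 0.39, against 0.15 across the 10693 tested genes with a coding length. These genes share libraries and are not independent. Among subunits found in most tissues, the 54 with coding lengths under 600 bases had a median log2 difference of -0.44 and a rho of 0.11 among themselves, and the 20 longer ones had a median of -0.21 and a rho of 0.57. Over all tested genes with a known coding length, the 1672 under 600 bases had a median of -0.23 and the 9021 longer ones 0.14, so short genes as a whole were lower. The 76 cytosolic ribosomal protein genes, of similar length (median 454.5 bases), had a median of 0.70. The 8 lower-called subunits found in most tissues had a median coding length of 336 bases. Core subunits of complex I had a median of 789 bases, against 411 bases for the accessory ones. The part of length in the differences between classes was not tested.

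**Figure D5:**
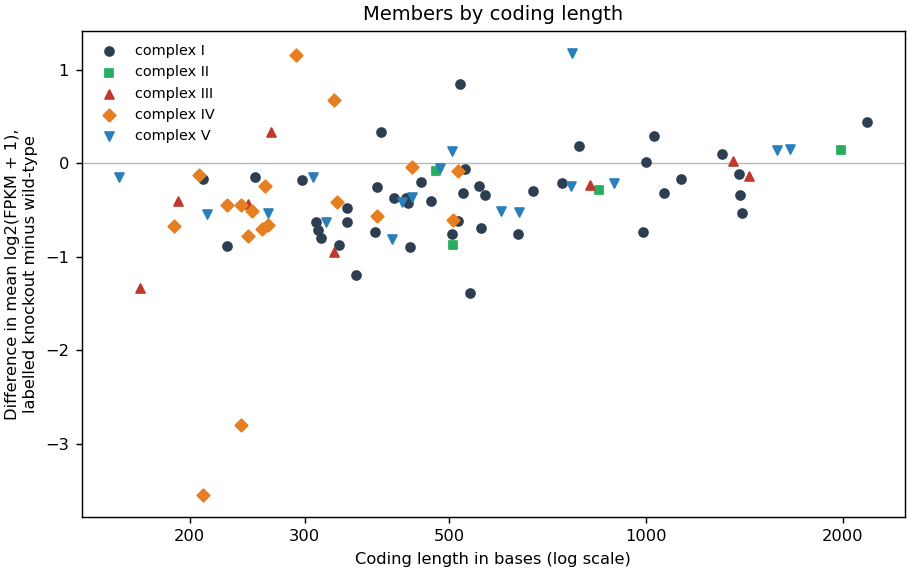
Difference in mean log2(FPKM + 1), labelled knockout minus wild-type, against coding length in bases (log scale) for the 90 tested members, with a marker for each complex. Spearman's rho across genes is 0.39, and the lowest points, Cox8b and Cox7a1, are short genes of complex IV.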

How the data were processed

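RNA was extracted with Trizol from sorted cells and libraries were made with a low-input SMARTer kit, per the labels' protocols. The build was mm9, per the submitters' processing notes; for the aligner, the quantifier and strandedness nothing is given in the sources used here. The authors deposited 1 table of 24043 rows with a value per gene and library in FPKM; no header states that unit, which was inferred from the values, whose totals differ between libraries. The 92 spike-in rows, all at 0, were left out, and 27 rows carry dates in place of symbols.

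Groups came from the sample titles. A gene was kept where 2 or more libraries reached 1 FPKM (11138 genes). The log2(FPKM + 1) values were fitted by genotype alone with limma 3.58.1 (R 4.3.3), using a trended, robust prior, and p-values were adjusted over all kept genes by Benjamini-Hochberg, with 0.05 as the threshold. Differences are labelled knockout minus wild-type, and understate changes of low genes. The script was first tested on simulated data. Precision is limited by 2 libraries a group, and absolute depth is unknown, so no counting interval is given.

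Members and lists were chosen with earlier results of these data known. The rule named every called member, all isoform sets, the Sdh genes, and, in each complex, the gene of highest mean, the 2 of lowest p and those of largest positive and negative difference. Outside it, Ndufs1, Ndufs8, Ndufs5, Ndufa6, Ndufb10, Uqcrc2, Cox5a, Cox7a2l, Atp5a1, Atp5h, Atp5j, Gabpa, Usmg5 and the called genes of the other lists were named after their values were seen. Coding lengths came from GENCODE M21 and promoters from RefSeq GRCm38.p6, joined by symbol; no mm9 coordinates were used. Basal epithelial markers summed to 61.3 to 66.4 FPKM in the libraries labelled knockout, against 112 to 337 in wild-type, with 1 called lower, macrophage markers to 597 to 648 against 362 to 5654, fibroblast markers to 209 to 211 against 253 to 624, endothelial markers to 22.0 to 22.8 against 32.6 to 199.9, and pericyte markers to 7.47 to 10.5 against 6.38 to 14.7, with 0 called in these 4 lists (at an unadjusted p under 0.05, 2 fibroblast and 3 endothelial genes were lower and the others had 0). Neutrophil markers summed to 1159 to 1247 against 276 to 542, with 2 called higher. Alternatives changed the pseudocount, the filter, the scaling, the prior, the libraries used and a replicate block.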

Additional observations from a re-analysis of the deposited data

How the results depend on the processing

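The count of lower members, 10, became 0 with no filter on low values (29 at an unadjusted p under 0.05), 5 when rescaled to a common total, 6 without trend or robust prior, and 15 with a filter at 5 FPKM, where Ndufb2, Ndufb6 and Ndufb8 were called besides Atp5g1 and Atp5j. The lower count was 8 with a pseudocount of 0.1, 13 with median centring and 9 with quantile normalization. Calls over all tested genes, in either direction, also moved with the setting. They numbered 1837 of 11138 in the main fit and 1458 of 11138 with a pseudocount of 0.1. They were 1 of 23951 with no filter, 1717 of 11138 when rescaled, and 1634 of 7104 with a filter at 5 FPKM. Ndufa12 and Ndufa4 lost their calls with the pseudocount of 0.1, and Ndufa7 and Ndufc1 besides these without trend. The single higher call also ended with no filter (0). Leaving out 1 library gave 0 to 55 lower and 0 to 10 higher members. With a replicate block 2 lower members (Cox7a1 and Cox8b) and 0 higher were called (20 lower and 1 higher at an unadjusted p under 0.05). The labels do not say that equal numbers mark a shared animal or day, and deviations of same-numbered libraries had a correlation of -0.06 over all tested genes, so the block was not used. The member median stayed between -0.46 and -0.29 in all of these settings. All 11 calls ended without either library labelled knockout, at limma adjusted p of up to 0.51. Cox8b was not tested without either wild-type library, since it then passed no filter. The 13 called genes of the other lists also lost their calls with no filter, and with the block all but Polg2 and Atpif1 did. The cause of these changes was not tested, apart from the fewer libraries or genes in a fit.

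Among single genes, Cox4i2 turned to 0.51 with a pseudocount of 0.1, Cox5a to 0.045 and Atp5h to 0.029 when rescaled to a common total, Cox5a to 0.035 and Atp5h to 0.015 with quantile normalization, and Uqcrc2 to -0.067 with median centring. Leaving out 1 library gave ranges of -0.89 to 0.38 for Cox4i2, -0.16 to 0.45 for Atp5b, -0.067 to 0.38 for Atp5a1, -1.91 to 0.59 for Cox6b2, -0.43 to 0.15 for Ndufa3, -0.64 to 0.076 for Sdhb, -0.79 to 0.31 for Ndufa4l2, -0.16 to 0.090 for Cox5a, -0.14 to 0.032 for Atp5h and -0.20 to 0.25 for Uqcrc2. With all 4 libraries none of these genes was called. Their calls with 1 wild-type library left are not given. Levels near or below 1 FPKM, as for the restricted isoforms, are the least precise, since their depth in reads is not known.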
